A study of Bos taurus with 20 samples.

Results

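The genes of the constitutive proteasome, the protease that degrades ubiquitin-tagged proteins in every cell, were examined in the blood of pregnant cows. Members were all genes whose cattle symbol begins with PSMA, PSMB, PSMC, PSMD, PSME, PSMF or PSMG followed by a number, except PSMB8, PSMB9 and PSMB10, that reached 10 counts or more in 5 or more of the cows. Of 47 such symbols among the 37063 genes in the files, 44 passed that filter and 3 did not. The filter uses only the height of the counts and not calf birth weight (BW). Among all genes, 16269 passed it over 20 cows. PSMC3IP (a partner of the meiotic recombinase machinery) and PSME3IP1 (a partner protein of the PSME3 activator) match the symbols but are not parts of the proteasome. They were kept as the rule has them, and without them the median correlation between members, given below, was 0.22 in place of 0.20.

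Whole blood was drawn on day 63 of gestation from 20 recipient cows that carried female calves. Each cow had received an embryo produced in vitro from an oocyte of an Angus beef donor and X-sorted semen. The methods describe the recipients as lactating dairy cows, although a table of the same study lists this set of samples as Angus with a wide span of ages, and the labels give neither breed nor age. All recipients were synchronized for embryo transfer, no treatment or control group divides them, and each cow gave 1 library. Calf BW, from 30 to 72.5 kg with a median of 44 kg, was the only quantity that the labels give as differing between cows, so age, parity and sire could not be included in any fit. Blood was taken into tubes that stabilize RNA, so all blood cell types contribute. The total count per library ranged from 24632077 (the cow of the 30 kg calf) through a median of 33412740 to 39892111 (the cow of the 40 kg calf). The slopes on BW below rest on 19 cows, because the methods of the study leave out the 72.5 kg calf as an outlier, whereas levels and correlations between genes rest on all 20.

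The proteasome is a barrel with a lid and a base. Its 20S core stacks rings of alpha subunits (PSMA) and beta subunits (PSMB), and the active sites lie on PSMB5, PSMB6 and PSMB7. The 19S particle caps the core and recognizes, unfolds and feeds in tagged proteins: its base holds a ring of ATPases (PSMC), and its base and lid hold further PSMD subunits. Other caps are the PSME activators, while PSMF1 is an inhibitor, and PSMG and several PSMD proteins are chaperones that help to assemble the particles. In leukocytes, interferon induces PSMB8, PSMB9 and PSMB10, which replace the active beta subunits and alter the peptides made for antigen presentation, and it also induces PSME1 and PSME2.

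In these whole-blood libraries the cell type markers of leukocytes were present. CSF3R and S100A12, of the neutrophil list, had median levels of 1840 and 1242 CPM (counts scaled to a common library size, with TMM factors that correct for library composition), CD3E of T cells 217.8 CPM, MS4A1 of B cells 315.5 CPM and CD68 of monocytes 239.9 CPM. Because blood is a mixture, fewer cells of a type and less RNA per cell cannot be told apart in these data.

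All 44 members were well counted, with 199 counts at the lowest for any member in any cow. Together they made up a small and steady share of the blood RNA. Their summed level was 2627 CPM at the lowest (72.5 kg calf), 2834 CPM at the median and 3099 CPM at the highest (37 kg calf), and their share of all counts ranged from 0.267% to 0.306% with a median of 0.282%. Median levels of single members ran from 8.42 CPM for PSMG3, a chaperone of core assembly, to 442.2 CPM for PSME1, a subunit of the interferon-inducible activator. Levels were not divided by gene length, so the height of one gene cannot be set against that of another.

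The members varied little between cows. The coefficient of variation (CV, the SD over the 20 cows as a percent of the mean) had a median of 8.2% over members, against 15.6% over the 16269 genes that passed the filter, and 28 of 44 members lay below the all-gene lower quartile of 9.17%. PSMB1, a beta subunit without an active site, had the lowest CV of the members, 3.47%, with 62.9 CPM at the lowest, 66.1 CPM at the median and 71.3 CPM at the highest. PSMG3 had the highest, 17.4%, with 5.80, 8.42 and 11.95 CPM. CV depends on depth, and the members were not matched to other genes by their counts. The cow of the 37 kg calf held the highest level of 14 members, while the cows of the 49.5, 50 and 41.5 kg calves held the lowest of 9, 8 and 8 members.

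**Figure D1:**
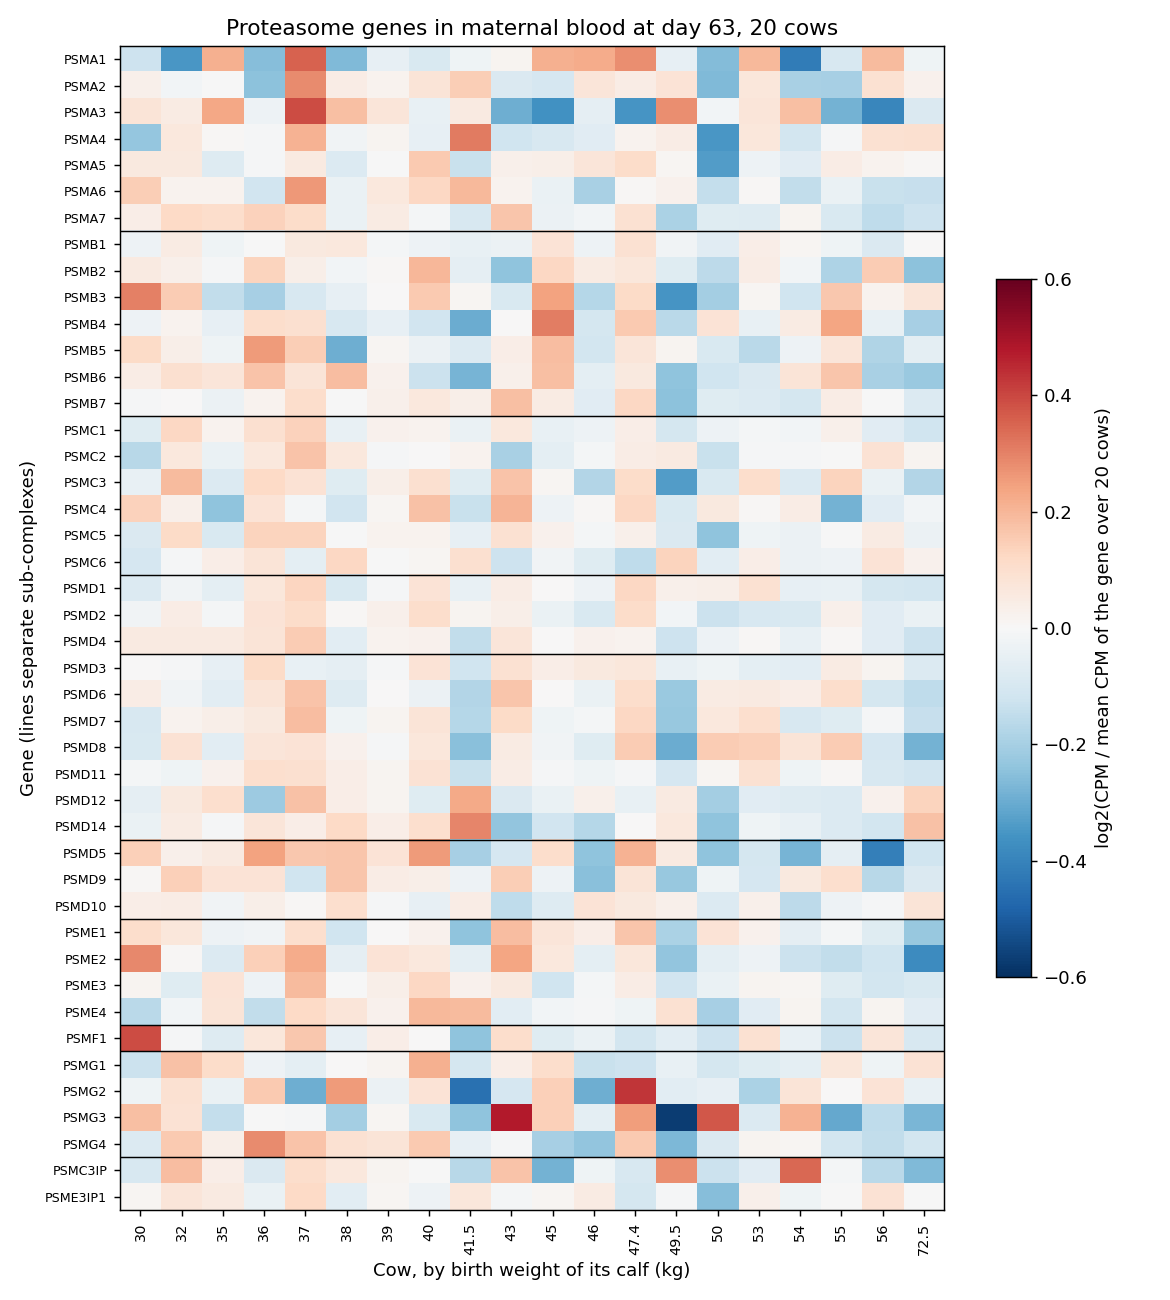
Levels of the 44 members (rows, grouped by sub-complex) in the 20 cows (columns, ordered by calf BW in kg), as log2 of CPM over the mean CPM of that gene across the cows. The column of the 37 kg calf holds the highest level of 14 members, and the columns of the 41.5, 49.5 and 50 kg calves hold most of the lowest levels.

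The 3 symbols below the filter were named apart. PSMB11, the beta subunit of the thymus, had 0 counts in all 20 cows, which allows up to 0.0752 to 0.122 CPM per library (3 counts of each total, counting error only). It overlaps PSMB5 in the gene table, and how reads shared by both were counted is not given in the sources used here. PSMA8, an alpha subunit of the testis, had between 0 and 13 counts, with at least 1 count in 12 cows. PSMD13, a subunit of the lid that belongs to the proteasome in every tissue, also had 0 counts in all 20 cows. In the gene table used for names, PSMD13 lies inside the span of NBAS, and 14 of 14 genes inside that span had 0 counts in every cow, whereas NBAS itself had 869 to 1409 counts. These include SIRT3 and RIC8A. The 0 of PSMD13 is therefore given as a value of the files and not as a level in blood, and its cause was not tested.

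The question put to the series was whether RNA in maternal blood relates to the weight of the calf at birth. No member passed the threshold for differentially expressed genes (DEG), a false discovery rate (FDR) below 0.05 in the edgeR quasi-likelihood fit over 16206 genes. The share of all genes called at that threshold was 0%, although 34 genes, none of them a member, passed when the 32 kg calf was left out, and the smallest FDR of a member was 0.167 (PSME2). At an unadjusted p below 0.05, 7 members had a negative slope on BW and 0 a positive one, where 7.08% of all genes had a negative slope and 6.78% a positive slope at that limit. The 7 make up 15.9% of the members. DESeq2, the test used in the study, also called 0 members at FDR below 0.05, against 1.22% of the 15478 genes given an FDR. At an unadjusted p below 0.05 it had 7 members with a negative and 0 with a positive slope. The shares at that limit were 5.07% and 5.56% of 23087 genes, which include any gene with 1 count. At FDR below 0.1, DESeq2 called 3 members, PSMD5, PSME2 and PSMA7, against 2.93% of the 15478 genes. At FDR below 0.05, limma with voom called 0 members and 0 of all 16206 genes.

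A negative slope, a lower level in cows of heavier calves, was found in 41 of 44 members (93.2%), against 53.5% of all genes tested. With DESeq2 the number was 38, since PSMC2, PSMC6 and PSMG2, all near 0, had positive slopes there. With the size factors of DESeq2 (RLE) in place of TMM in edgeR it was also 38. The matching share of all genes was not computed for either fit. The median slope was -0.0037 log2 per kg over members and -0.00072 over all genes. Over the 26 kg that separate the lightest and heaviest calves in the fit, the median fitted change of a member was -6.37%. The members were read in the same 19 libraries and are not independent of each other, and no test was made over the list.

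**Figure D2:**
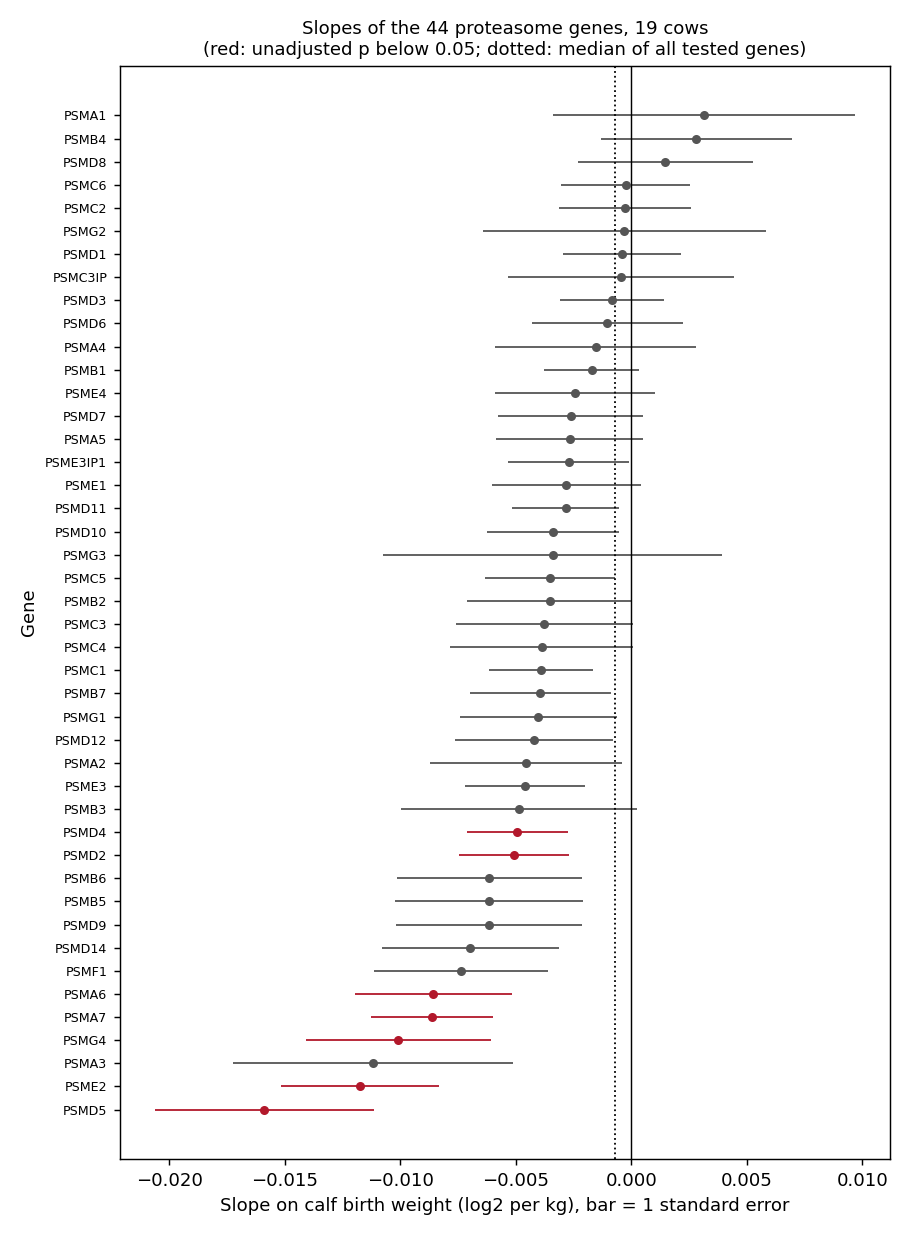
Slope of each member on calf BW in 19 cows, in log2 per kg, with bars of 1 standard error and the dotted line at the median of all tested genes. Points in red are the 7 members with an unadjusted p below 0.05, and all 7 lie left of 0.

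In the core, 6 of 7 alpha genes and 6 of 7 beta genes had a negative slope. PSMA7, an alpha subunit, was measured at 83.5 CPM at the lowest (49.5 kg calf), 94.2 CPM at the median and 106.6 CPM at the highest (43 kg calf). The 8 cows of calves up to 40 kg lay between 92.4 and 104.6 CPM and the 7 cows of calves over 48 kg between 83.5 and 96.2 CPM, so the ranges overlap. Its slope was -0.0086 ± 0.0026 log2 per kg (SE, edgeR p = 0.00355, FDR = 0.175), a fitted change of -14.4% over 26 kg with a 95% interval of -22.4 to -5.54%. PSMA6, the other alpha gene with an unadjusted p below 0.05, had 37.9, 43.6 and 51.9 CPM at the lowest, median and highest, with a slope of -0.0086 (p = 0.0196, FDR = 0.261). PSMA3 had a slope of -0.011 with a wider error (SE 0.0061, p = 0.0798, and below 0.05 in 2 of 19 fits with 1 cow left out), and PSMA1, whose lowest level belonged to the 54 kg calf and whose highest to the 37 kg calf, had a positive slope of 0.0031 ± 0.0065 (p = 0.636), which was -0.0015 with an erythroid covariate and -0.00038 when the 32 kg calf was left out.

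The catalytic beta genes had negative slopes with p above 0.05 in the 19 cows. PSMB5, which carries the chymotrypsin-like site, had 12.1, 14.8 and 17.8 CPM at the lowest, median and highest, and a slope of -0.0062 ± 0.0041 (SE, p = 0.147, FDR = 0.540). PSMB6, which carries the caspase-like site, had 28.4, 35.4 and 39.2 CPM and a slope of -0.0061 ± 0.0040 (p = 0.140, FDR = 0.530). PSMB7, which carries the trypsin-like site, had 23.7, 28.0 and 31.8 CPM and a slope of -0.0039 ± 0.0030 (p = 0.211, FDR = 0.613). The intervals for the change over 26 kg, -23.2 to 4.31%, -23.0 to 4.04% and -16.9 to 4.44%, include 0 for each of the 3. With all 20 cows PSMB6 had -0.0066 (p = 0.0446, FDR = 0.359). When 1 cow was left out, PSMB5 had -0.0077 (p = 0.0489, FDR = 0.374) without the 38 kg calf, and PSMB7 had -0.0022 without the 49.5 kg calf. PSMB4, a structural beta subunit, had a positive slope of 0.0028 ± 0.0041 (p = 0.504), which was -0.00078 with all 20 cows and 0.00090 without the 55 kg calf.

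In the 19S particle, all 6 ATPase genes (4 of them with DESeq2, where PSMC2 and PSMC6 were just above 0) and all 3 other base genes had negative slopes, as did 6 of 7 lid genes. PSMD2, a scaffold of the base, and PSMD4, a ubiquitin receptor, had slopes of -0.0051 (p = 0.0437, FDR = 0.345) and -0.0049 (p = 0.0361, FDR = 0.321). Their levels spanned 113.5 to 133.8 CPM and 136.9 to 168.5 CPM. Their p-values stayed below 0.05 in only 7 and 12 of the 19 fits that each leave out 1 cow, whereas those of PSME2, PSMD5, PSMA7, PSMA6 and PSMG4 stayed below it in 19 of 19. PSMD14, the deubiquitinase of the lid that cuts ubiquitin from substrates, had a slope of -0.0070 ± 0.0038 (p = 0.0848). PSMD8, a structural lid subunit, had the third positive slope, 0.0015 ± 0.0038 (p = 0.701), which was -0.0028 with all 20 cows and 0.00036 without the 53 kg calf, and among the ATPases PSMC6 had -0.00024 ± 0.0028 (p = 0.932, or 0.00014 with DESeq2).

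Among the assembly chaperones, PSMD5, which holds ATPase subunits until the base is complete, had the largest fitted change of any member. It was measured at 14.5 CPM at the lowest (56 kg calf), 19.8 CPM at the median and 23.0 CPM at the highest (40 kg calf). All 8 cows of calves up to 40 kg lay at or above 19.6 CPM, while the cows of heavier calves were mixed, with 20.0, 20.7 and 22.2 CPM at 49.5, 45 and 47.4 kg, so the ranges overlap. The slope was -0.016 ± 0.0047 log2 per kg (SE, edgeR p = 0.00311, FDR = 0.173), a change of -24.9% with a 95% interval of -37.1 to -10.2%. With all 20 cows the slope of PSMD5 was -0.0106, and that of PSME2, -0.0122, was steeper. PSMD9 and PSMD10, the other base chaperones, had slopes of -0.0062 (p = 0.141) and -0.0034 (p = 0.246). That of PSMD10 was -0.0021 without the 54 kg calf and -0.00045 with all 20 cows. Of the core chaperones, PSMG4 had 40.9, 49.3 and 59.9 CPM at the lowest, median and highest and a slope of -0.010 ± 0.0040 (p = 0.0203, FDR = 0.264), whereas PSMG1, PSMG2 and PSMG3 had p above 0.05.

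All 4 activator genes had negative slopes. PSME2, which forms the interferon-inducible activator ring together with PSME1, had the smallest p of the members in the edgeR fit on BW. With DESeq2 the smallest was that of PSMD5 (p = 0.00190, against 0.00202 for PSME2). PSME2 was measured at 39.0 CPM at the lowest (72.5 kg calf, outside the fit), 49.4 CPM at the median and 62.1 CPM at the highest (30 kg calf). Its 4 lowest levels were those of the cows of the 72.5, 49.5, 55 and 54 kg calves, and its 3 highest those of the 30, 43 and 37 kg calves. The slope was -0.012 ± 0.0034 (SE, edgeR p = 0.00257, FDR = 0.167), a change of -19.0% with a 95% interval of -28.8 to -7.96%. Leaving out the 30 kg calf gave a slope of -0.0098.

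PSME1, its partner in the ring, was measured at 370.4 CPM at the lowest (41.5 kg calf), 442.2 CPM at the median and 497.2 CPM at the highest (43 kg calf), with a slope of -0.0028 ± 0.0032 (SE, p = 0.392, FDR = 0.752). PSME3, the nuclear activator that is not induced by interferon, had 86.4, 94.1 and 106.9 CPM and a slope of -0.0046 ± 0.0026 (p = 0.0916). PSME4, a large single-chain nuclear activator, had 48.8, 55.6 and 64.1 CPM and a slope of -0.0024 ± 0.0035 (p = 0.491). Single cows moved these slopes, with -0.0014 for PSME1 without the 49.5 kg calf, -0.0030 for PSME3 without the 37 kg calf, and -0.0051 and -0.00076 for PSME4 without the 30 and 55 kg calves. With all 20 cows PSME1 had -0.0047 (p = 0.0830). The inhibitor PSMF1 had 26.5, 30.5 and 41.1 CPM and a slope of -0.0074 ± 0.0038 (p = 0.0633), or -0.0025 (p = 0.473) when the 30 kg calf, whose dam had the highest level, was left out.

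**Figure D3:**
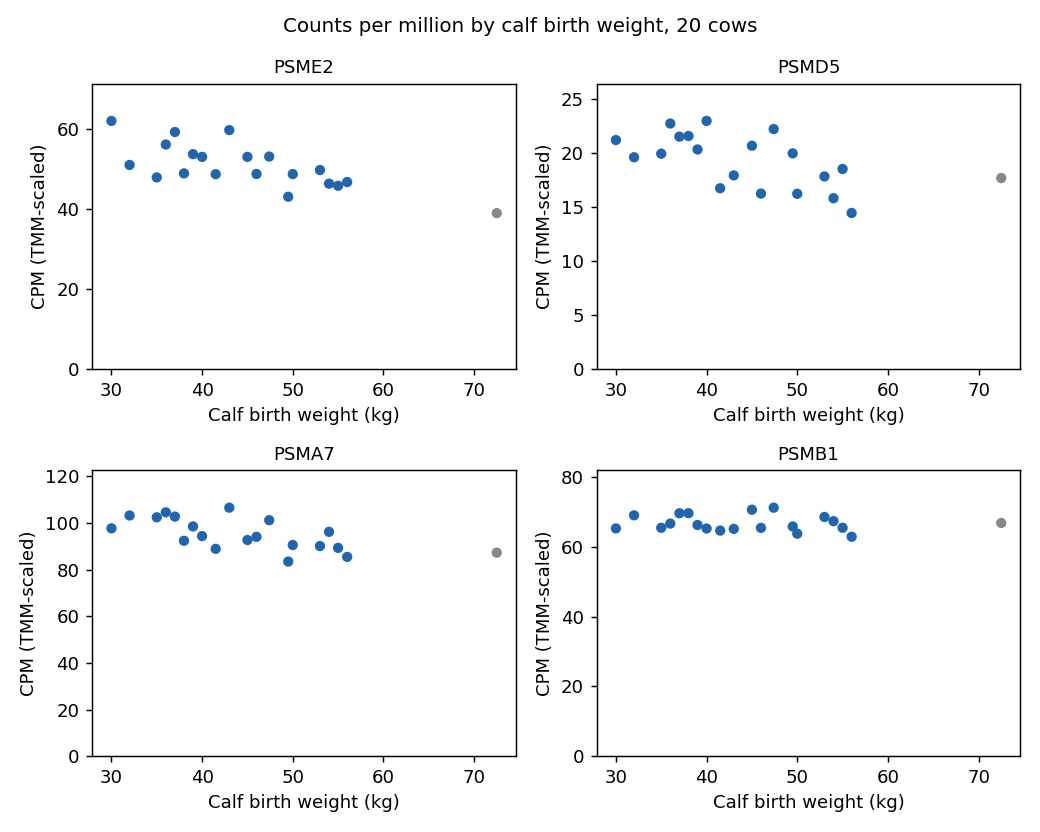
CPM of PSME2, PSMD5, PSMA7 and PSMB1 in each of the 20 cows by calf BW in kg, with axes that start at 0 and the cow left out of the fit in grey. PSME2 lies between 39.0 and 62.1 CPM and PSMB1, the member with the lowest CV, between 62.9 and 71.3 CPM.

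Whether the genes of one complex move together from cow to cow was described by Pearson's r of log2 CPM (prior count 2) over the 20 cows, without BW. These correlations are descriptions over libraries that share depth and composition effects, and no p is given. Over the 946 pairs of members the median r was 0.20 (quartiles -0.036 and 0.41), against -0.0018 (quartiles -0.19 and 0.19) over all pairs of the 16269 genes. An r above 0.5 was found in 16.6% of member pairs and 3.61% of all pairs, and an r below -0.5 in 2.01% and 3.24%. Like the CV, r depends on depth, and the members were not matched to other genes by their counts. Within the 19S particle the median was 0.36, within the core 0.21, and within the lid 0.44, whereas the ATPase ring had 0.21.

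PSMD4, PSME2 and PSMA7 had the highest median r with the other members, 0.45, 0.44 and 0.38. The closest pairs were PSMD6 with PSME1 (0.84), PSMA7 with PSMD4 (0.82) and PSMD6 with PSMD8 (0.82), where PSMD6 is a lid subunit. Parts that are built in equal number into one ring were not always the closest, since the 3 catalytic genes had r of 0.34 to 0.43 among themselves. Single cows moved these values. With 1 cow left out, r was 0.35 to 0.72 for PSMB5 with PSMB6. It was 0.28 to 0.45 for PSMB5 with PSMB7 and 0.26 to 0.51 for PSMB6 with PSMB7. PSME1 and PSME2, which form a ring together, had r = 0.74.

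A few members ran against the others. PSMC6, an ATPase of the base, had the lowest median r, -0.24, followed by PSMD10 at -0.12 and PSMD12, a lid scaffold, at -0.09. PSMC6 and PSME1 had r = -0.82, which stayed between -0.87 and -0.79 when each cow was left out, and PSMC6 with PSMD6 had -0.72 although both belong to the 19S particle. PSMC6 was 42.0 CPM at the lowest, 46.6 at the median and 51.3 at the highest, so this opposition takes place within a narrow range. The first principal component of the members held 31.4% of their variance. With that component, 34 members correlated positively and 10 negatively, the latter being PSMA2, PSMA3, PSMA4, PSMC2, PSMC6, PSMD10, PSMD12, PSMD14, PSME4 and PSME3IP1. Within the 34 the median r was 0.31, within the 10 it was 0.46, and between the sides -0.10, which the split itself favors. All 10 had negative slopes on BW (8 with DESeq2, without PSMC2 and PSMC6), with p above 0.05 for each, as did 31 of the 34, which hold all 7 members with p below 0.05.

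**Figure D4:**
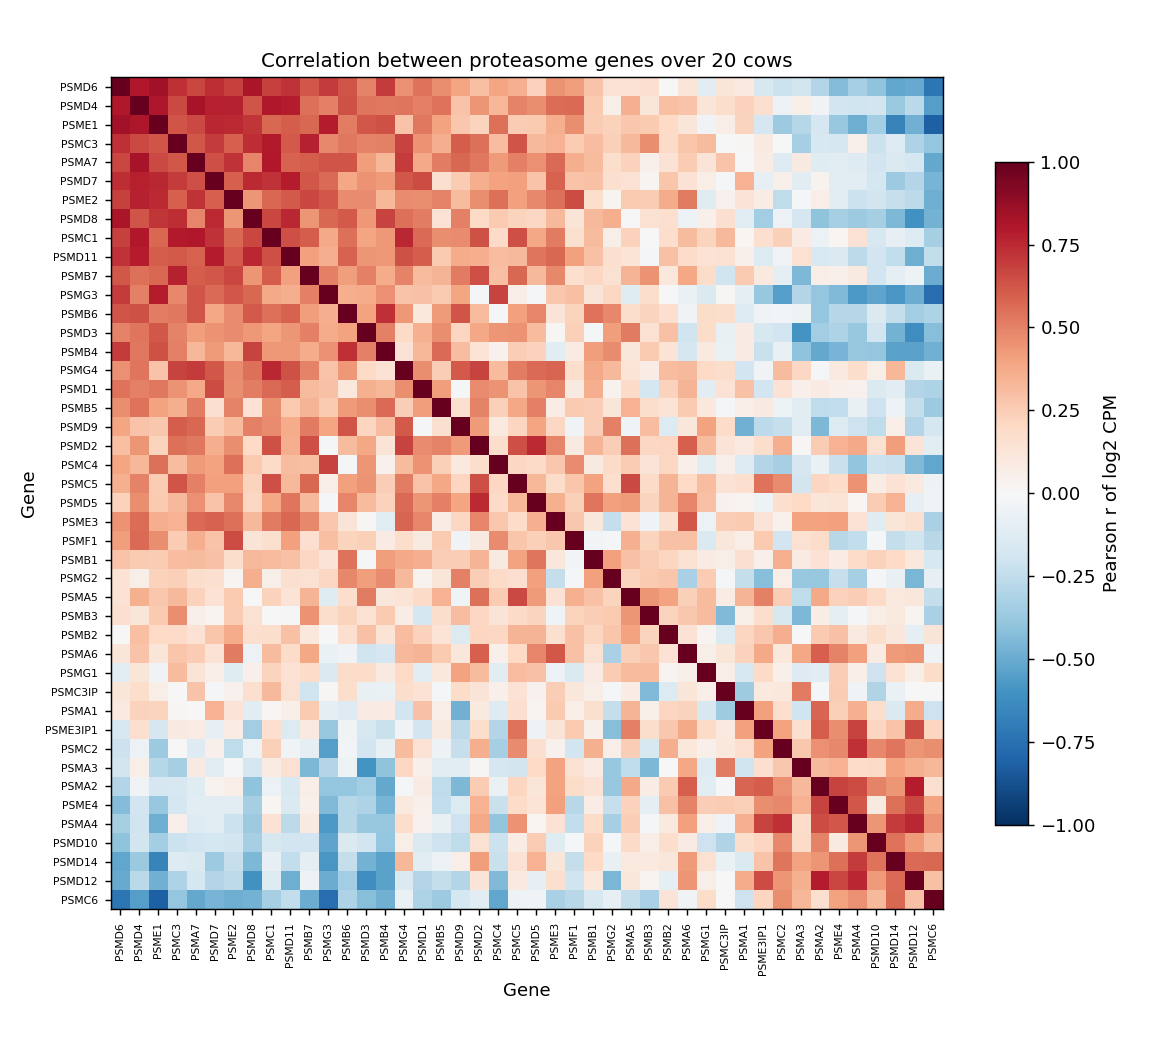
Pearson r of log2 CPM between all pairs of members over the 20 cows, red for positive and blue for negative. Most cells are red, and the blue bands belong to genes such as PSMC6 and PSMD12, with PSMC6 and PSME1 at -0.82.

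For a summary by cow, the member score is the mean over the 44 members of each gene's z-score, so that every gene weighs the same. It was lowest for the 50 kg calf (-0.758) and highest for the 37 kg calf (0.945). All 8 cows of calves up to 40 kg had a score above 0, and 1 of the 7 cows of calves over 48 kg did, limits chosen after the values were seen. The scores of the 38, 35 and 30 kg calves lay close to 0, at 0.014, 0.022 and 0.037, as did that of the 53 kg calf, 0.029. Between these weight limits, the 47.4 kg calf had the second highest score, 0.545, and the 41.5 and 46 kg calves had -0.380 and -0.335. Over 20 cows the score had a Pearson r of -0.60 and a Spearman rho of -0.59 with BW, and r = -0.54 without the 72.5 kg calf. Without the 2 cows farthest from the median BW, those of the 72.5 and 30 kg calves, r was -0.59. No p is given for a score over members chosen with earlier results known.

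**Figure D5:**
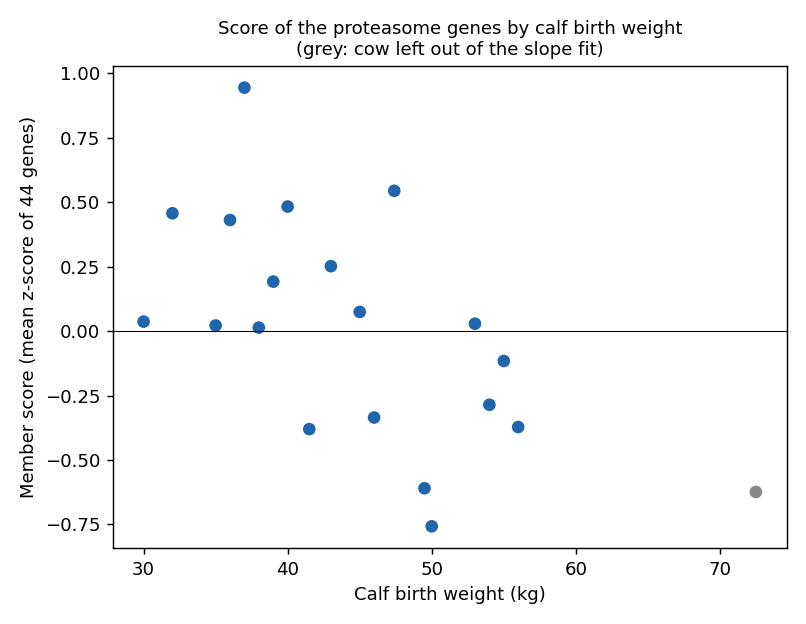
Member score, the mean z-score of the 44 genes, in each cow by calf BW in kg, with the cow left out of the slope fit in grey. The 8 cows of calves up to 40 kg all lie above 0, and the scores run from -0.758 to 0.945.

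Other measures moved with the score. Its r was 0.10 with log2 of the total count and -0.10 with the TMM factor, and 0.45 with the first principal component of all genes, which held 11.5% of their variance and itself had r = -0.41 with BW. The second component, with 8.44% of the variance, had r = -0.24 with the score and 0.46 with BW, and was not used as a covariate. With the first component in the fit, a choice made after seeing the data, 2 of the 44 members had a negative slope with p below 0.05 (PSME2, p = 0.0281, and PSMA7, p = 0.0394), where 7 had it without. The share of all genes with such a slope was 3.56% with the component and 7.08% without, so the members' count lay near the background of that fit. The 5 others still had negative slopes, smaller than without the component and with wider errors. The slopes were -0.011 ± 0.0055 for PSMD5, -0.0063 ± 0.0041 for PSMA6, -0.0064 ± 0.0047 for PSMG4, -0.0040 ± 0.0029 for PSMD2 and -0.0032 ± 0.0026 for PSMD4 (SE). Without the component these were -0.016, -0.0086, -0.010, -0.0051 and -0.0049. Of the marker lists, proliferation (4 of 4 genes passed; 309.6 to 566.3 CPM summed, most abundant MKI67 and TOP2A) had the highest r with the score, 0.59, and r = -0.24 with BW. Monocytes (5 of 6 passed, all but FCGR1A; 334.1 to 746.2 CPM, CD68 and CSF1R) had r = 0.44 with the score and -0.28 with BW, and B cells (6 of 6; 635.5 to 1113 CPM, MS4A1 and CD79B) had -0.43 and -0.018.

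The erythroid list (8 of 8 genes; HBB and ALAS2) reached from 56.0 CPM to 1108 CPM in the cow of the 36 kg calf, with r = 0.37 with the score and -0.39 with BW. HBB had a median of 102.7 CPM, whereas SLC4A1, HBM, HBA1, HBA and AHSP had medians of 0.12 to 0.57 CPM. The erythroid score weighs each gene the same, so these genes with few counts enter it as much as HBB. With the erythroid score as a covariate, 4 members had a negative slope with p below 0.05, PSME2, PSMD5, PSMA7 and PSMA6, against 5.31% of all genes. Of the 3 others, PSMD4 and PSMD2 had slopes of -0.0043 (p = 0.0883) and -0.0047 (p = 0.0854), close to those without the covariate, and PSMG4 had -0.0060 (p = 0.112). Of the eosinophil list 1 of 5 genes passed, IL5RA (20.2 to 199.8 CPM), with r = -0.36 with the score and 0.50 with BW, while CCR3 and ALOX15 failed the filter and EPX and PRG3 were not found in the table. T cells (8 of 8; 776.6 to 1178 CPM, CD3E and LCK) had r = 0.35 with the score, platelets (7 of 7; 623.6 to 1808 CPM, TUBB1 and ITGB3) 0.26, plasma cells (3 of 3; 112.6 to 322.7 CPM, JCHAIN and MZB1) 0.23, neutrophils (9 of 9 found, with FPR1 not found; 3215 to 5911 CPM, CSF3R and S100A12) 0.11 and natural killer cells (4 of 4; 112.1 to 228.2 CPM, NCR1 and PRF1) 0.038. Single genes went both ways with the score, from -0.18 (CXCR1) to 0.43 (S100A12) in the neutrophil list. In the natural killer list they ran from -0.35 (NCR1) to 0.24 (PRF1). With the neutrophil, T cell or proliferation score as a covariate, 7 members had a negative slope with p below 0.05, as without one, against 7.18%, 7.72% and 7.79% of all genes. The part of the other lists in the slopes was not tested.

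The immunoproteasome subunits were set beside the members they replace. PSMB8, which takes the place of PSMB5, had 314.5, 445.2 and 493.3 CPM at the lowest, median and highest, with a slope of -0.0081 ± 0.0042 (SE, p = 0.0688). PSMB9, for PSMB6, and PSMB10, for PSMB7, had slopes of -0.0034 (p = 0.432) and -0.0052 (p = 0.195). Of the 4 activator genes, the interferon-inducible pair had the highest r with them over the 20 cows. PSME1 had r = 0.89, 0.78 and 0.87 with PSMB8, PSMB9 and PSMB10, and PSME2 0.70, 0.48 and 0.83. PSME3 had 0.28, 0.13 and 0.39, and PSME4 had -0.42, -0.35 and -0.16. PSMD4, the ubiquitin receptor, had 0.85, 0.66 and 0.78, and PSMC6 had -0.66, -0.68 and -0.61. With PSMB8, PSMB9 and PSMB10, 15, 9 and 19 of the 44 members had r above 0.5 and 4, 3 and 1 had r below -0.5. Among the 16222 genes outside both groups, the shares above 0.5 were 9.16%, 6.72% and 5.97%, and those below -0.5 were 9.6%, 7.47% and 6.33%. The members were not matched to these genes by counts either.

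The 2 forms were compared between cows by the log2 ratio of their RNA counts in each library, which needs no scaling between libraries. Counts were not divided by gene length, so the height of a ratio is not the proportion of the 2 forms. PSMB8 over PSMB5 was 4.49, 4.89 and 5.11 at the lowest, median and highest, and its r with BW over 20 cows was -0.29 (two-sided permutation p = 0.217, adjusted over the 3 ratios 0.326; rho -0.26, p = 0.275, adjusted 0.413). PSMB9 over PSMB6 was 0.77, 1.07 and 1.37, with r = 0.20 (p = 0.413, adjusted 0.413; rho 0.19, p = 0.413, adjusted 0.413). PSMB10 over PSMB7 was 1.11, 1.39 and 1.499, with r = -0.35 (p = 0.130, adjusted 0.326; rho -0.28, p = 0.232, adjusted 0.413). No ratio had a detectable relation to BW, and without the cows of the 72.5 and 30 kg calves the r were -0.066, 0.23 and 0.021. For PSMB10 over PSMB7, r was -0.52 when the 41.5 kg calf alone was left out (permutation p = 0.0247, not adjusted). With 1 cow left out, r ran from -0.40 to -0.10 for PSMB8 over PSMB5 and from 0.13 to 0.27 for PSMB9 over PSMB6.

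A list of other pathway genes held 28 in all, the 3 immunoproteasome genes above and partners with other symbols. None passed FDR below 0.05 in edgeR, and 22 had a negative slope, the 3 immunoproteasome genes among them, where 53.5% of all genes did. At an unadjusted p below 0.05 there were 3 negative and 1 positive of the 28, against 7.08% and 6.78% of all genes, and no test was made over the list. Among the negative ones were UBQLN2, a shuttle that delivers substrates (-0.011, p = 0.0100, FDR = 0.215), and ZFAND5, an activator of degradation (-0.0068, p = 0.0270, FDR = 0.287). The positive one was NFE2L1, the transcription factor that drives subunit genes when proteasome activity falls short. It was measured at 181.9 CPM at the lowest (40 kg calf), 218.2 CPM at the median and 326.5 CPM at the highest (56 kg calf), with a slope of 0.015 ± 0.0048 (SE, edgeR p = 0.00477, FDR = 0.184; DESeq2 FDR = 0.0957). Its r with the member score was -0.36 over 20 cows.

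NFE2L2, a related factor of the oxidative stress response, had a slope of 0.0028 (p = 0.436), and DDI2 and NGLY1, which process NFE2L1, -0.00031 (p = 0.927, just above 0 with DESeq2) and -0.0035 (p = 0.494). The subunit genes with other symbols, ADRM1 (a ubiquitin receptor) and SEM1 (of the lid), had p of 0.759 and 0.452, and the core chaperone POMP 0.351. PAAF1, ECPAS and AKIRIN2, which act on assembly, stability or transport of the particle, had 0.135, 0.712 and 0.630. The deubiquitinases UCHL5 and USP14 had slopes of -0.011 (p = 0.0608) and -0.0048 (p = 0.321). VCP, the unfolding ATPase, UBQLN1, UBQLN4 and RAD23B had p of 0.691, 0.259, 0.763 and 0.419.

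The ubiquitin genes UBB and RPS27A had slopes of -0.0021 (p = 0.469) and -0.0013 (p = 0.724), with r of 0.61 and 0.44 with the score. The activating enzymes UBA1 and UBA6 had slopes of -0.00045 (p = 0.857) and 0.0038 (p = 0.258), with r of 0.063 and -0.63 with the score.

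Outside the pathway, the 10 genes most like the member score over 20 cows were NACA (0.89), COX4I1 (0.88), PDIA3 (0.88), RPL36AL (0.87), AP2M1 (0.87), ACSL5 (0.86), CALHM6 (0.86), FEZ2 (0.86), EIF4A1 (0.85) and LMAN2 (0.85). Of the 16225 genes that are not members, 1.08% had r above 0.7 and 0.703% below -0.7. NACA binds nascent chains at the ribosome, COX4I1 is a subunit of cytochrome c oxidase, PDIA3 a disulfide isomerase of the endoplasmic reticulum and EIF4A1 a translation initiation helicase. All 10 had a negative slope on BW, a direction that their choice by likeness to a score with r = -0.60 with BW largely fixes, with CALHM6 (-0.035 ± 0.010, SE; edgeR p = 0.00283, FDR = 0.171) the steepest of them.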

How the data were processed

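RNA from whole blood of 20 cows was sequenced with 1 library per cow and paired reads. The labels name a SMARTer stranded kit and the methods a Truseq stranded kit. The authors trimmed reads, aligned them and deposited raw counts per gene, with FastQC 0.11.9, Trimmomatic, STAR 2.7.0b and featureCounts of Subread 2.0.3 named in the submitters' processing notes. The strand setting and the treatment of reads that match several genes are not given in the sources used here, so members that overlap another gene, such as PSMA6, PSMB3, PSMB5, PSMD6, PSME1 and PSMG2, are less certain. A RefSeq gene table of another assembly paired all 37063 identifiers with symbols. Its positions served only to find which genes overlap or lie inside another, which may differ in the assembly the authors used, and no coordinates or sequences are printed.

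Slopes on calf BW came from edgeR 4.0.16 (R 4.3.3; TMM, quasi-likelihood test, Benjamini-Hochberg over 16206 genes that reached 10 counts in 5 or more cows), with the SE taken from the slope and its F statistic. Intervals for a fitted change are 95% intervals. Each cow is a separate animal. No library pair agreed within sampling noise (190 pairs, lowest chi-square per degree of freedom 12.6). The labels name no batch. Ratios used 100000 permutations. The slope fits, but not the permutations, were tested on simulated data. The planted slopes were steeper than that of any member, so recovery of smaller slopes was not tested.

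The alternatives were DESeq2 1.42.0, limma 3.58.1 with voom, other size factors, filters and scales, all 20 cows, rank of BW, marker and library size covariates and leaving out each cow. The proliferation and principal component covariates, and the ratios with other cows, were added after seeing the data. Members and lists were chosen with earlier results of these data known.

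Genes were named by a rule: the catalytic subunits, activators and inhibitor; the 3 smallest p in each direction; the highest and lowest CV and median correlations; the pathway and marker lists; and the 10 genes most like the score. Its clause on level per length could not be applied. Other members in the text were chosen after their values were seen. Some genes of the pathway list enter its counts but are not reported here by name.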

Additional observations from a re-analysis of the deposited data

How the results depend on the processing

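No paired analysis was possible because the labels give 1 continuous variable and no groups that share replicate numbers. With 19 cows and no gene below FDR 0.05 in edgeR, single slopes have wide errors. No member passed FDR below 0.05 under any alternative run, although over all genes 147 passed when any gene with 1 count was kept, 4 with all 20 cows, 189 with DESeq2, 34 when the 32 kg calf was left out and at most 2 when any other single cow was. The median slope of the members stayed negative throughout, between -0.0047 and -0.0027 with 1 cow left out. The number with a negative slope was 35 to 41 of 44 with 1 cow left out and 38 with DESeq2 or RLE size factors. It was 36 with any gene of 1 count and 35 with the principal component as a covariate. The share of all genes with a negative slope was computed only for the main fit (53.5%). The median slope of all genes was -0.00072 there, -0.00041 with DESeq2 and -0.00031 with RLE size factors. It was -0.00019 with any gene of 1 count and -0.00024 with the principal component. With 1 cow left out it ran from -0.00093 (without the 32 kg calf) to -0.00018 (without the 55 kg calf). Members with an unadjusted p below 0.05 and a negative slope numbered 5 with RLE size factors or with any gene of 1 count (6.52% of all genes in each), 4 with the erythroid covariate (5.31%) and 2 with the principal component (3.56%), against 7 (7.08%), and 5 (without the 36 or 37 kg calf, 6.27% and 5.82%) to 8 (without the 32, 30, 38 or 41.5 kg calf, 7.89%, 6.84%, 6.82% and 7.19%) with 1 cow left out, and 8 with all 20 cows (6.41%). Other pathway genes at that limit numbered 5 negative and 2 positive with all 20 cows and 0 and 0 with the principal component, against 3 and 1, and 1 (without the cows of the 55 or 37 kg calf) to 4 negative and 1 positive with 1 cow left out. The slope of PSMC6 turned positive with DESeq2 (0.00014), RLE size factors (0.00017), any gene with 1 count (0.00040), all 20 cows (0.00055), the erythroid covariate (0.00026) and the principal component (0.0015), and ran from -0.0017 to 0.00072 with 1 cow left out. With all 20 cows PSMB4 had -0.00078 and PSMD8 -0.0028. PSMA1 had -0.0015 with the erythroid covariate and -0.00038 (without the 32 kg calf) to 0.0075 with 1 cow left out, and PSMG3 had -0.0062 to 0.00028 (without the 55 kg calf). The causes were not tested. The median r between members was 0.18 to 0.22 and the score's r with BW -0.64 to -0.54 with 1 cow left out. For PSMB10 over PSMB7 the r was 0.021 without the 2 farthest cows, and -0.52 (without the 41.5 kg calf, permutation p = 0.0247, not adjusted) to -0.092 (without the 72.5 kg calf) with 1 cow left out.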

Other observations

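At the other end of the correlations with the member score, 4 of the 10 lowest genes are given with their r, chosen after their values were seen. KMT2C, a histone methyltransferase, had r = -0.94 over 20 cows, SHOC2, a scaffold of RAS signaling, -0.86, TNRC6B, a partner of Argonaute in microRNA silencing, -0.86, and APC, a brake on WNT signaling, -0.82. Their slopes on BW were positive, a direction that the choice by the score largely fixes, with 0.0079 (p = 0.0166, FDR = 0.252) for KMT2C, 0.0067 (p = 0.0258, FDR = 0.284) for SHOC2, 0.014 (p = 0.00117, FDR = 0.129) for TNRC6B and 0.0079 (p = 0.0155, FDR = 0.248) for APC in edgeR over 19 cows, and none passed FDR below 0.05.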
